A study of Rattus norvegicus with 16 samples.

Results

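The JAK, STAT and SOCS genes of the rat kidney were described in 16 rats: the kinases Jak1 and Jak2, the transcription factors Stat3, Stat5a and Stat5b, and the inhibitors Cish, Socs1, Socs2 and Socs3. They were chosen by name, as the members of the pathway that the study put forward for sinomenine, and they are 9 of the 35849 genes in the deposited table. Renal tissue of male Sprague Dawley rats, 6 to 8 weeks old at the start, was measured by RNA sequencing, with 4 rats in each of 4 groups. The normal group received citrate buffer and a normal diet. The DN group, a model of diabetic nephropathy, received streptozotocin at 45 mg/kg, which destroys insulin-producing cells, and a diet rich in sugar and fat. The SIN (20 mg/kg) group and the SIN (40 mg/kg) group received the same injection and diet and were given sinomenine, a plant alkaloid, at 20 or 40 mg/kg per day for 8 weeks. The rats were not genetically altered, and only rats with high blood glucose after streptozotocin went on in the study, so the DN and SIN rats share that selection.

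Cytokines and hormones such as IL-6, growth hormone and prolactin bind receptors that carry JAK kinases, and the kinases phosphorylate STAT proteins, which then enter the nucleus and switch on genes. Among these genes are Cish and the SOCS genes, whose proteins bind the receptors or the kinases and shut the signal down, so that their mRNA is often read as a trace of recent signaling. In the kidney the pathway carries growth hormone and prolactin signals in the tubules and inflammatory signals in injured tissue. Phosphorylation of the proteins, by which the pathway is switched on, is not measured by RNA sequencing.

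The sequence just before the gene start is shown for Cish and Socs1, because of the 7 windows that the RefSeq table holds for the members these were the ones with a match to the palindromic STAT motif TTCNNNGAA. The motif reads the same on both strands, and capitals mark each match in the 250 bases before the gene start (build GRCr8). The Cish stretch lies at chr8:116850719-116850968 on the plus strand and the Socs1 stretch at chr10:5389324-5389573 on the plus strand.
Cish: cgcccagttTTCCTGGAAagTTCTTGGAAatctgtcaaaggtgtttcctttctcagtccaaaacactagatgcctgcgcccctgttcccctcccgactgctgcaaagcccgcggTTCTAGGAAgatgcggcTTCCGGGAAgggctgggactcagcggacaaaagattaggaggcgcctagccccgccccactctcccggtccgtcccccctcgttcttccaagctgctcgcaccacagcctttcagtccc
Socs1: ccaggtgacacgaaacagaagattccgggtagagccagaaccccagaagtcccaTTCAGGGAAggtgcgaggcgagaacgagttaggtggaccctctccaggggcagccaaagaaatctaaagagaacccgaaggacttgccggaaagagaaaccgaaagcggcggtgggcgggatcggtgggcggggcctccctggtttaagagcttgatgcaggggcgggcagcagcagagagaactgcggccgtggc

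The Cish stretch held 4 matches, TTCCTGGAA, TTCTTGGAA, TTCTAGGAA and TTCCGGGAA, which began at -241, -230, -136 and -119 from the gene start. The Socs1 stretch held 1 match, TTCAGGGAA, at -196. Of 33469 promoters of the same length, 7.67% held at least 1 match and 2 promoters, or 0.00598%, held at least 4. None of the 4 matches in Cish overlapped another. No match was in the windows of Jak2, Stat3, Stat5a, Stat5b and Socs3, which says only that these letters are not in those windows, and Jak1 and Socs2 had no entry in the table. The windows of Socs3, Stat3 and Stat5b end 1207, 154 and 226 bases inside the outermost bounds of the gene, so the sequence before the outermost start of Socs3 was not searched and that of the other two only in part. A match is a stretch of letters and was not tested as a binding site.

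Estimated counts per rat totalled 19616312 to 25217030, and Spearman correlations between rats over the tested genes were between 0.95 and 0.987. Expression is given as CPM, counts scaled by TMM over the 16 rats to a common library size, as mean ± SD of 4 rats where an error is shown. The labels describe separate rats. Libraries of a group carry neighbouring serial numbers, and with that any batch effect and the treatment cannot be told apart. Kidney markers such as Lrp2, Umod and Nphs1 were present in every group, with summed levels of 8 genes between 8890 and 12500 CPM. Library DN replicate 3 had the highest sum of the urothelium and keratinocyte markers (200 CPM, against a DN median of 66.9 CPM, 9 of 10 markers in the table) and of the stroma and smooth muscle markers (948 CPM against a DN median of 402 CPM, 8 of 8). In whole tissue, fewer cells of a type and less RNA per cell cannot be told apart.

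Per kilobase of gene length, Stat3 and Jak1 had the highest levels of the 9 genes and Socs1 the lowest. Over 16 rats the level was 33.9 ± 4.92 CPM per kb for Stat3 and 30.3 ± 2.39 CPM per kb for Jak1, and the ranges of these neighbours overlapped. Stat5b (15.8 ± 1.68 CPM per kb) lay below every Jak1 value, and its range overlapped that of Cish (13.7 ± 7.76 CPM per kb). Socs3 (6.02 ± 2.37 CPM per kb), Jak2 (3.99 ± 0.932 CPM per kb) and Stat5a (3.47 ± 0.672 CPM per kb) followed, each overlapping its neighbour. Socs2 (1.57 ± 0.291 CPM per kb) lay below every Stat5a value, and Socs1 (0.789 ± 0.293 CPM per kb) overlapped Socs2. In the normal and DN groups Cish varied most of the 9 genes between rats. Its coefficient of variation in the normal group was 72.5%, which 1.51% of 14455 genes with at least 1 CPM reached, against a median of 14.1% over those genes.

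**Figure D1:**
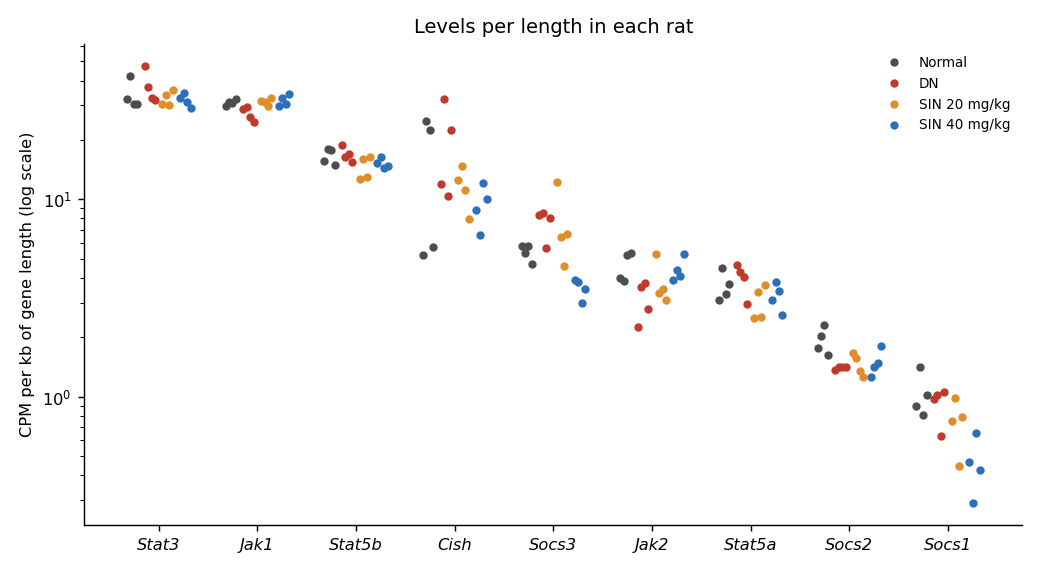
Levels of the 9 genes in each of the 16 rats, in CPM per kb of gene length on a log scale, ordered by the mean over all rats, 1 point per rat and colored by group. Stat3 and Jak1 lie highest, Cish spreads from 5.25 to 32.2 CPM per kb, and Socs1 lies lowest, with its lowest point in the SIN (40 mg/kg) group.

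Each comparison was tested over all genes by edgeR's quasi-likelihood test, two-sided, on the 8 rats compared, with Benjamini-Hochberg adjustment of the p-values across every gene tested. At an adjusted p under 0.05, 0 of the 9 genes passed in any of the 6 comparisons between groups. Between DN and normal 19.5% of 15777 genes, or 3076, passed this threshold, a count that moved with single rats left out. It was 1622, 3782, 987 and 770 without normal replicate 1, 2, 3 or 4. Without DN replicate 1, 2, 3 or 4 it was 1604, 1309, 2589 and 2646. The share of all genes past the threshold was 0.0% in the SIN (20 mg/kg) over DN and 0.0% in the SIN (40 mg/kg) over DN comparison, 0.00639% between the doses, 6.35% in SIN (20 mg/kg) over normal and 5.97% in SIN (40 mg/kg) over normal. DESeq2 in place of this test passed 2 of the 9 genes in DN over normal, where it passed 4161 of 15777 genes. It passed 2 in SIN (40 mg/kg) over DN (424 of 15530 genes) and 1 in SIN (40 mg/kg) over normal (1764 of 15735 genes). With edgeR's exact test 1 of the 9 passed in each of these comparisons, beside 3389, 161 and 1509 of all genes in the same order. DESeq2 and the exact test both passed 0 of the 9 in the other comparisons. An unadjusted p under 0.05 was reached by 5 of the 9 genes in SIN (40 mg/kg) over DN, where 17.1% of all genes reached it. It was reached by 1 in SIN (20 mg/kg) over DN (15.4% of all genes), 2 in DN over normal (36.9%), 1 between the doses (4.98%), 0 in SIN (20 mg/kg) over normal (20.8%) and 2 in SIN (40 mg/kg) over normal (22.9%). The 9 genes were chosen by name, from a pathway that the study put forward partly from its own transcriptome comparison of DN and SIN (40 mg/kg). Counts of the 9 genes in SIN (40 mg/kg) over DN are therefore not independent of that choice, and no test of their share was made.

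**Figure D2:**
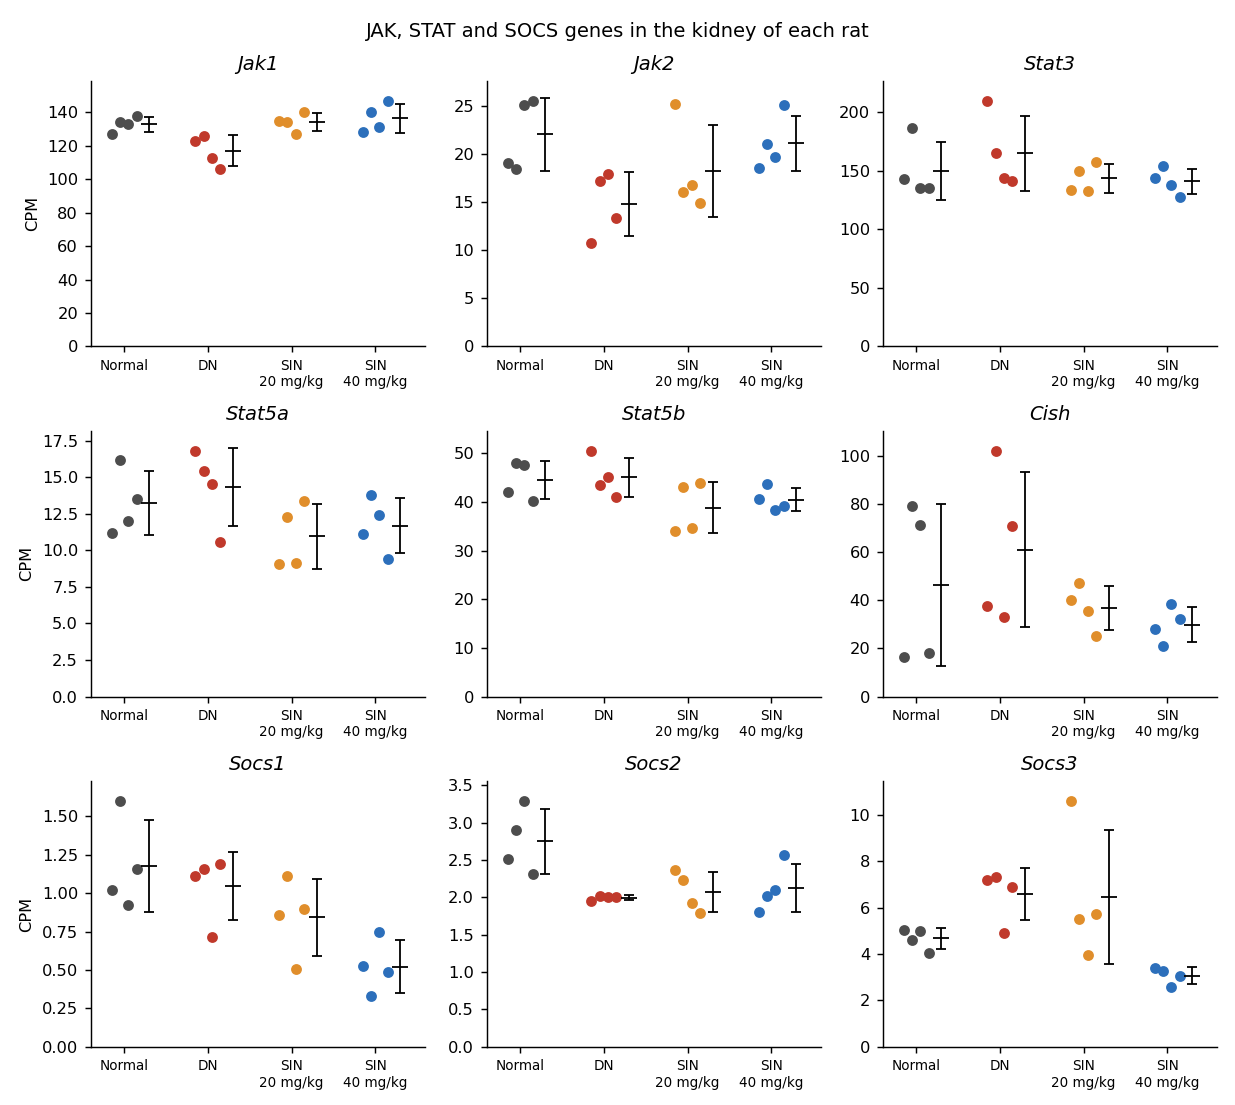
CPM of each gene in each rat, 1 panel per gene, with points for replicates 1 to 4 of each group and the mean ± SD beside them. The 4 SIN (40 mg/kg) rats have lower Socs3 than all other rats, the 4 DN rats have lower Jak1 and Jak2 than all normal rats, and Cish splits into high and low rats in the normal and DN groups.

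The kinases Jak1 and Jak2, which sit on many cytokine receptors, were lower in every DN rat than in every normal rat, by a small margin. Jak1, used by the IL-6 and interferon receptors, was at 127, 134, 133 and 138 CPM in the normal rats and at 123, 126, 113 and 106 CPM in the DN rats. Jak2, the kinase of the growth hormone and prolactin receptors, was at 19.1, 18.5, 25.2 and 25.6 CPM in the normal rats and at 10.8, 17.2, 18.0 and 13.4 CPM in the DN rats. So the groups did not overlap for either kinase, nor for Socs2, which makes 3 of 9 genes where 24.3% of all genes tested did not overlap. The log2 fold change of DN over normal was -0.57 ± 0.19 (SE) for Jak2, with a 95% interval from -0.99 to -0.15 and an adjusted p of 0.0581 in edgeR's quasi-likelihood test. For Jak1 it was -0.18 ± 0.08, with an interval from -0.37 to 0.00 and an adjusted p of 0.139. Jak2 was past the threshold in DESeq2 (adjusted p = 0.0275), with edgeR's exact test (0.0388), with all 16 rats in one fit (0.0437), without normal replicate 2 (0.045) and without DN replicate 3 (0.0479), and its adjusted p over 15 alternatives ran up to 0.155. The summed immediate-early genes also moved in this comparison, from 247 to 483 CPM in normal rats to 193 to 242 CPM in DN rats for 12 of 12 genes. Of 10 tested, 4 fell past the threshold, Nr4a1, Egr1, Jun and Fos, where 19.5% of all genes passed. Egr1 and Fos spread widely in the normal rats, at 37.5 ± 34.5 and 9.65 ± 10.9 CPM. A clock score was the mean log2 CPM of Dbp and 9 genes listed as peaking with it, less that of a Bmal1 list. The Bmal1 list held Bmal1 and 4 genes listed as peaking with it. This score was -0.66 to 0.06 in the normal and 0.61 to 2.02 in the DN rats. Within the Bmal1 list Cry1 went the other way in this comparison, with a log2 fold change of 0.37 where that of Bmal1 was -1.19. The summed kidney markers went from 10500 to 12500 CPM in normal rats to 9060 to 10800 CPM in DN rats, with Umod past the threshold, and the stroma and smooth muscle markers from 242 to 386 CPM to 338 to 948 CPM, with Tagln and Col1a1 past it. Of 6 tested tubular injury genes 3 rose, Havcr1, Clu and Cdkn1a, and Vcam1 fell, beside the 19.5% of all genes that passed. The part of these lists and of the clock score in the kinase values was not tested.

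In the SIN groups the mean level of both kinases was higher than in the DN group, without passing the adjusted threshold. Jak1 was at 135, 134, 127 and 140 CPM in the SIN (20 mg/kg) rats and at 128, 140, 131 and 147 CPM in the SIN (40 mg/kg) rats. All 8 of these rats lay above the highest DN rat. Jak1 was the only one of the 9 genes that did not overlap between SIN (20 mg/kg) and DN, where 8.98% of all genes did not, and 3 of 9 did not between SIN (40 mg/kg) and DN, where 10.4% of all genes did not. The log2 fold change of Jak1 over DN was 0.20 ± 0.09 at 20 mg/kg (adjusted p = 0.322, edgeR's quasi-likelihood method) and 0.23 ± 0.09 at 40 mg/kg (adjusted p = 0.259). Jak2 was at 18.6, 21.1, 19.7 and 25.2 CPM in the SIN (40 mg/kg) rats, all above the highest DN rat. At 20 mg/kg it was at 25.3, 16.1, 16.8 and 14.9 CPM, where only the first rat lay above the DN range. Over DN, Jak2 had a log2 fold change of 0.51 ± 0.18 at 40 mg/kg, with an interval from 0.11 to 0.91 and an adjusted p of 0.222 in edgeR's test, and 0.30 ± 0.22 at 20 mg/kg (adjusted p = 0.497), or 0.094 without replicate 1 of that dose and 0.165 without DN replicate 1. Between the doses Jak1 differed by 0.02 ± 0.08 on the log2 scale, with an interval from -0.16 to 0.20, and Jak2 by 0.20 ± 0.18, with an interval from -0.20 to 0.60. The same 4 DN rats stand in the comparisons with both doses and with the normal group, so these values are not independent.

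The 3 transcription factors had overlapping values in every comparison. Stat3, which carries IL-6 family signals, was at 143, 187, 135 and 135 CPM in the normal rats and at 210, 165, 144 and 141 CPM in the DN rats. It was at 134, 150, 133 and 158 CPM in the SIN (20 mg/kg) rats and at 144, 154, 138 and 128 CPM in the SIN (40 mg/kg) rats. The rats that stood out were normal replicate 2 and DN replicate 1. The log2 fold change of Stat3 was 0.14 ± 0.15 for DN over normal, with an interval from -0.20 to 0.48, -0.20 ± 0.14 for SIN (20 mg/kg) over DN, with an interval from -0.50 to 0.10, and -0.23 ± 0.13 for SIN (40 mg/kg) over DN, with an interval from -0.52 to 0.07. These values rest on DN replicate 1, without which they were 0.005, -0.069 and -0.106 in the same order. The interval of SIN (40 mg/kg) over DN allows a Stat3 level as low as 0.696 times that of DN.

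Stat5a and Stat5b, near-identical factors that carry growth hormone and prolactin signals, share reads. Their estimated counts were fractional in 15 of 16 rats, and the sum of both was whole in all 16, within a tolerance of 1e-06 for a whole count, so the division of reads between them is uncertain. Stat5b was at 42.0, 48.0, 47.6 and 40.2 CPM in the normal, 50.5, 43.5, 45.1 and 41.1 CPM in the DN, 34.0, 43.0, 34.6 and 43.8 CPM in the SIN (20 mg/kg) and 40.7, 43.6, 38.4 and 39.2 CPM in the SIN (40 mg/kg) rats. Stat5a was at 11.2, 16.2, 12 and 13.5 CPM in the normal, 16.8, 15.4, 14.5 and 10.6 CPM in the DN, 9.03, 12.3, 9.11 and 13.4 CPM in the SIN (20 mg/kg) and 11.1, 13.8, 12.4 and 9.39 CPM in the SIN (40 mg/kg) rats. For both genes all groups overlapped, and replicates 1 and 3 of the SIN (20 mg/kg) group were its low rats in both. Summed into 1 gene, a choice made after seeing the data, the log2 fold change was 0.05 ± 0.10 for DN over normal, -0.26 ± 0.13 for SIN (20 mg/kg) over DN (interval from -0.54 to 0.02) and -0.19 ± 0.10 for SIN (40 mg/kg) over DN (interval from -0.41 to 0.03). The adjusted p of the sum was 0.77, 0.344 and 0.359 in these comparisons by edgeR's quasi-likelihood test.

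Cish, an inhibitor that STAT5 induces and the gene with 4 motif matches before its start, split into high and low rats where no sinomenine was given. It was at 16.6, 79.2, 71.4 and 18.1 CPM in the normal rats and at 37.7, 102, 33.0 and 71.0 CPM in the DN rats, a 4.77-fold and a 3.09-fold span within a group. Normal replicates 2 and 3 and DN replicates 2 and 4 lay far above the others of their group, and the groups overlapped. It was at 39.9, 47.1, 35.5 and 25.1 CPM in the SIN (20 mg/kg) rats and at 27.9, 20.9, 38.3 and 32.0 CPM in the SIN (40 mg/kg) rats. These 8 rats lay within the span of the normal group, and none reached the 71.0 CPM or more that 4 of the 8 normal and DN rats had. That level was picked after the values were seen. The log2 fold change of DN over normal was 0.40 ± 0.55 with an interval from -0.83 to 1.62, which allows a 3.08-fold higher as well as a lower level. It was -0.73 ± 0.34 for SIN (20 mg/kg) over DN (adjusted p = 0.335, edgeR's quasi-likelihood method) and -1.03 ± 0.34 for SIN (40 mg/kg) over DN (interval from -1.80 to -0.26, adjusted p = 0.216). Without DN replicate 2, the rat with the highest Cish, these became -0.365 and -0.664, and DN over normal 0.039. DESeq2 gave an adjusted p of 0.0492 for SIN (40 mg/kg) over DN with all rats, and the range over 15 alternatives was 0.0492 to 0.43. Against the normal group the values were -0.33 ± 0.48 at 20 mg/kg and -0.64 ± 0.48 at 40 mg/kg, with intervals on both sides of 0, and without normal replicate 2 they were 0.064 and -0.254.

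Socs1, which restrains JAK kinases under interferon signals, had the fewest reads, with 7 to 33 counts per rat. It was at 1.02, 1.60, 0.922 and 1.16 CPM in the normal rats, 1.11, 1.16, 0.716 and 1.19 CPM in the DN rats and 0.86, 1.11, 0.506 and 0.894 CPM in the SIN (20 mg/kg) rats. In the SIN (40 mg/kg) rats it was at 0.528, 0.328, 0.746 and 0.484 CPM, from 10, 7, 16 and 10 counts. These 4 rats lay below all normal rats, and the highest of them lay above the lowest DN rat. The log2 fold change of SIN (40 mg/kg) was -1.16 ± 0.35 over normal (interval from -1.95 to -0.37, adjusted p = 0.084, edgeR's quasi-likelihood method) and -0.99 ± 0.36 over DN (interval from -1.78 to -0.20, adjusted p = 0.23). Over normal, edgeR's exact test gave an adjusted p of 0.036, and the range over 14 alternatives was 0.036 to 0.213. DN over normal was -0.17 ± 0.31, and SIN (20 mg/kg) over DN was -0.30 ± 0.34, so neither interval excluded 0. The groups of SIN (40 mg/kg) and normal did not overlap for 2 of 9 genes, Socs1 and Socs3, where 14.3% of all genes did not overlap.

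Socs2, which limits growth hormone signaling, was at 2.51, 2.90, 3.29 and 2.31 CPM in the normal rats and at 1.95, 2.02, 2.01 and 2.00 CPM in the DN rats. Every DN rat lay below every normal rat. DN over normal gave -0.46 ± 0.21 on the log2 scale, with an interval from -0.94 to 0.01 and an adjusted p of 0.146 in edgeR's quasi-likelihood test. In the SIN (20 mg/kg) rats it was at 2.36, 2.23, 1.92 and 1.79 CPM and in the SIN (40 mg/kg) rats at 1.80, 2.02, 2.1 and 2.56 CPM, on both sides of the DN values. Over DN the log2 fold change was 0.05 ± 0.22 at 20 mg/kg, with an interval from -0.44 to 0.55, and 0.09 ± 0.22 at 40 mg/kg, with an interval from -0.40 to 0.57.

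Socs3, which STAT3 induces and which blocks IL-6 family receptors, separated the SIN (40 mg/kg) rats from all others. It was at 5.03, 4.60, 5.0 and 4.05 CPM in the normal rats and at 7.21, 7.33, 4.92 and 6.90 CPM in the DN rats. It was at 10.6, 5.53, 3.95 and 5.74 CPM in the SIN (20 mg/kg) rats and at 3.38, 3.28, 2.57 and 3.05 CPM in the SIN (40 mg/kg) rats. All 4 SIN (40 mg/kg) rats lay below each of the 12 other rats, an order that 15 of 16221 genes, or 0.0925%, shared and that was singled out after the values were seen. At 20 mg/kg replicate 1 was the highest of all rats and replicate 3 lay below every DN rat. DN replicate 3 lay within the normal range, while the other 3 DN rats lay above it.

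Socs3 in DN over normal had a log2 fold change of 0.50 ± 0.18, with an interval from 0.10 to 0.90 and an adjusted p of 0.0749 in edgeR's quasi-likelihood test. It passed with DESeq2 (adjusted p = 0.0466) and without DN replicate 3, the library with the highest stroma and urothelium markers (log2 fold change 0.62, adjusted p = 0.0386). Over 15 alternatives its adjusted p ran up to 0.186. In SIN (40 mg/kg) over DN the change was -1.10 ± 0.19, a 2.15-fold lower level with an interval from -1.53 to -0.68. Its unadjusted p was 0.000193 and its adjusted p 0.167, while DESeq2 gave an adjusted p of 0.000156 and edgeR's exact test 0.00319. Only these 2 of 15 alternatives passed, and the adjusted p over the 15 ran up to 0.392. Without DN replicate 3 the change was -1.22 (adjusted p = 0.0823). Against normal, Socs3 at 40 mg/kg was -0.61 ± 0.18 (interval from -1.01 to -0.21, adjusted p = 0.0769), and DESeq2 gave an adjusted p of 0.0421. The range over 15 alternatives was 0.0421 to 0.18. Leukocyte markers, 12 of 12 in the table, summed to 842 to 946 CPM in the DN rats and 781 to 974 CPM in the SIN (40 mg/kg) rats. The stroma and smooth muscle markers summed to 338 to 948 CPM in the DN and 287 to 351 CPM in the SIN (40 mg/kg) rats (median log2 fold change -1.09, with 5 of 8 at an unadjusted p under 0.05), and the urothelium and keratinocyte markers to 7.54 to 200 CPM and 10.6 to 40.2 CPM (median -2.02, with 2 of 6 tested). The clock score was 0.61 to 2.02 in the DN rats and 2.17 to 2.79 in the SIN (40 mg/kg) rats. The part of these markers and of the clock score in the Socs3 values was not tested.

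Between the doses the fold change of Socs3 was the largest of the 9 genes, and it did not pass the adjusted threshold. SIN (40 mg/kg) over SIN (20 mg/kg) gave a log2 fold change of -1.08 ± 0.29 for Socs3, with an interval from -1.73 to -0.44, an unadjusted p of 0.00384 and an adjusted p of 0.962 in edgeR's test. With 1 rat left out this change ran from -1.255 to -0.724. The groups did not overlap for Socs3, which 3.31% of all genes shared, and it was the only 1 of the 9. Socs1 was at -0.70 ± 0.38, with an interval from -1.55 to 0.15, and Cish at -0.32 ± 0.22, with an interval from -0.79 to 0.16. At 20 mg/kg Socs3 was at -0.03 ± 0.29 over DN, with an interval from -0.67 to 0.61, and at -0.38 without replicate 1 of that dose.

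**Figure D3:**
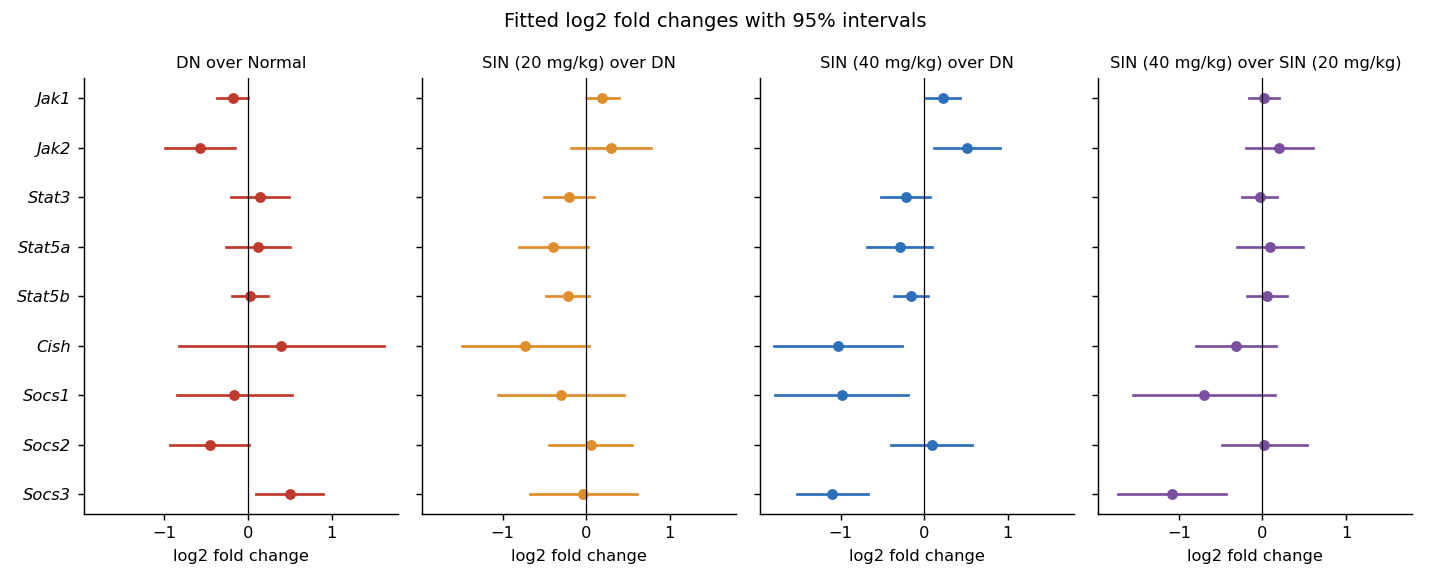
Fitted log2 fold changes of the 9 genes in 4 comparisons, with points for the estimates and lines for the 95% intervals, without adjustment for multiple tests. In SIN (40 mg/kg) over DN the intervals of Jak1 and Jak2 lie above 0 and those of Cish, Socs1 and Socs3 below it, while between the doses the interval of Socs3 alone lies off 0.

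After subtraction of group means, the 3 STAT genes deviated with the same sign in 10 of 16 rats and with mixed signs in 6. Over 16 rats Stat3 and Stat5a had a Pearson r of 0.776 (Spearman rho 0.785), Stat3 and Stat5b an r of 0.713 (rho 0.691), and Stat5a and Stat5b, which share reads, an r of 0.741 (rho 0.747). Jak2 and Stat3 had an r of -0.654 (rho -0.656), and Socs2 and Cish an r of 0.614 (rho 0.668). Permutation p-values within groups, adjusted over 36 pairs, were 0.0522, 0.0574, 0.144, 0.151 and 0.207 for r, so 0 of 36 pairs passed by r. For rho they were 0.0266, 0.0977, 0.128, 0.136 and 0.136, so Stat3 and Stat5a alone passed by rho. Without the 2 rats farthest from the median of the first gene, r was 0.769, 0.656, 0.746, -0.647 and 0.594. Stat5b, Stat5a and Stat3 are consecutive genes on chromosome 10 in the RefSeq annotation of GRCr8. Normal replicate 2 and DN replicate 1, the rats with the highest Stat3, also had the highest Stat5a of their groups.

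**Figure D4:**
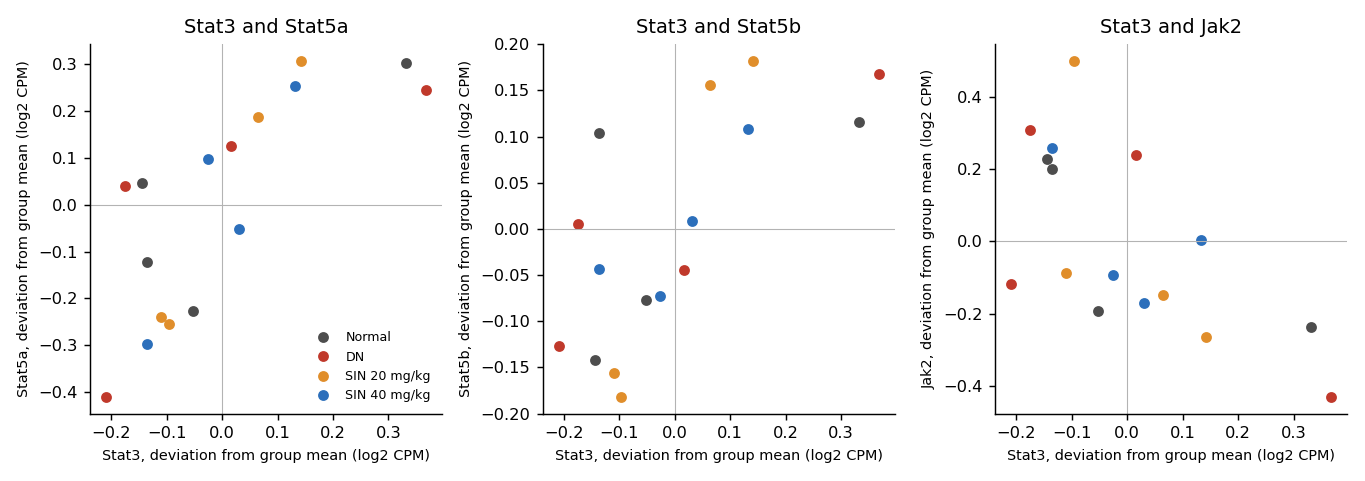
Deviations of single rats from their group mean in log2 CPM, for Stat3 against Stat5a, Stat5b and Jak2, with 1 point for each of 16 rats colored by group. The r with Stat3 is 0.776 for Stat5a, 0.713 for Stat5b and -0.654 for Jak2, none of these r past the adjusted threshold. By rho, Stat3 and Stat5a are past it (adjusted permutation p = 0.0266).

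The genes with the most similar pattern over the 16 rats were sought among 14935 genes, by the mean absolute difference of log2 CPM scaled to mean 0 and SD 1. For Jak2 it was Wac at 0.171, where the median over genes was 1.09. For Cish these were Gadd45g at 0.399 and Irs2 at 0.406 (median 1.11), and for Socs3 they were Nlrp3 at 0.415 and Ephb6 at 0.435. Gadd45g had means of 41.2, 46.4, 30.8 and 26.8 CPM and Nlrp3 of 2.39, 3.04, 2.51 and 1.70 CPM in normal rats, DN rats and rats at the lower and higher SIN dose. Asap1 was nearest to Jak1 (0.335), Nod1 to Stat3 (0.383), Zfp13 to Stat5b (0.321) and RGD1564664 to Socs1 (0.356).

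Around the 9 genes, the receptors of growth hormone, prolactin and leptin fell in the DN kidney. Of the growth hormone, prolactin, erythropoietin and leptin ligands and receptors, 4 of 10 were tested, and 3 fell and 0 rose in DN over normal. Prlr, the prolactin receptor, fell by 1.46 on the log2 scale (SE 0.29, adjusted p = 0.0136, edgeR's quasi-likelihood method), from 103 ± 22.3 to 37.5 ± 17.9 CPM. Ghr, the growth hormone receptor, fell by 0.54 (SE 0.13, adjusted p = 0.0241), from 147 ± 13.6 to 100 ± 16.4 CPM, and Lepr, the leptin receptor, by 0.71 (SE 0.20, adjusted p = 0.0347). The median of this list was -0.75, beside 0.002 over all genes, and 19.5% of all genes passed in this comparison. The kidney markers had a median of -0.36 in the same comparison and the stroma and smooth muscle markers of 1.14, and their part in the receptor values was not tested. Prlr was at 31.7 ± 5.49 CPM in the SIN (20 mg/kg) and 26.9 ± 5.14 CPM in the SIN (40 mg/kg) group and was also lower than normal there (adjusted p = 0.000919 and 0.000537). Igf1, a growth hormone target reached through STAT5, fell by 1.55 in DN over normal (SE 0.35, adjusted p = 0.0194), from 23.3 ± 8.20 to 7.92 ± 3.79 CPM.

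Of the IL-6 family receptors 2 of 7 fell in DN over normal and 0 rose, beside 19.5% of all genes that passed in either direction. Il6st, the signaling chain that the family shares, fell by 0.38 (SE 0.09, adjusted p = 0.021), and Cntfr, the receptor of ciliary neurotrophic factor, by 1.03 (SE 0.31, adjusted p = 0.0423). Tyk2 (0.35, adjusted p = 0.0447) was the 1 of 4 other JAK and STAT genes described here that rose, and Socs5 (-0.42, adjusted p = 0.0358) the 1 of 4 other SOCS genes that fell. Pias4, which attaches SUMO to STAT proteins, was the 1 of 10 other negative regulators that rose (0.49, adjusted p = 0.0178), and Csf2rb the 1 of 17 interferon and interleukin receptors (0.50, adjusted p = 0.0441). Shares such as 1 of 4 or 1 of 10 lie near or below that of all genes and are no result about these lists.

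Of 18 tested STAT3 target genes 4 rose and 1 fell in DN over normal, a share near the 19.5% of all genes that passed. Fgb rose by 3.42 (SE 0.46, adjusted p = 0.00421) and Fga by 0.82 (SE 0.12, adjusted p = 0.00536), which encode chains of fibrinogen, Ccnd1 by 1.16 (SE 0.17, adjusted p = 0.00524), a cyclin, and Bcl2l1 by 0.43 (SE 0.11, adjusted p = 0.0244), which protects cells from death. Hif1a fell by 0.37 (SE 0.10, adjusted p = 0.0321). The median of the STAT3 targets was 0.45. Of 8 tested STAT5 targets Ccnd1, Bcl2l1 and Cdkn1a rose and Igf1 fell, so 2 of the 3 that rose stand in both lists.

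**Figure D5:**
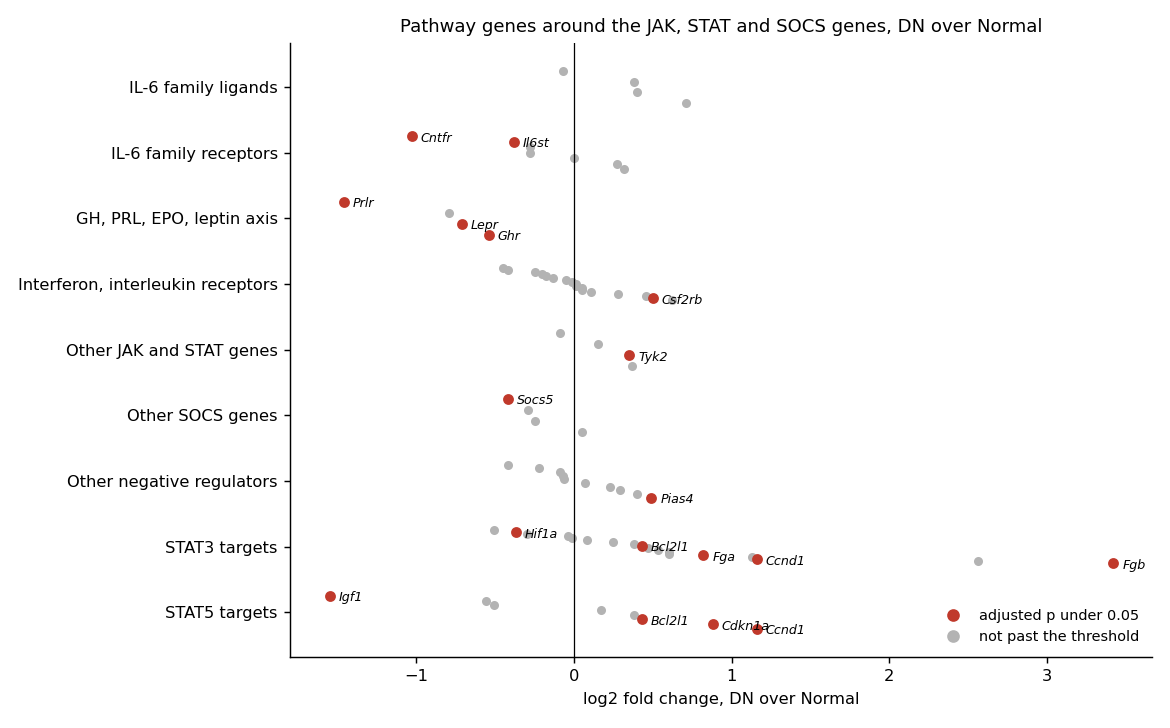
Log2 fold changes of DN over normal for tested genes of 9 lists around the 9 genes, 1 point per gene, with red points and names for an adjusted p under 0.05. Prlr, Lepr, Ghr, Cntfr and Igf1 lie to the left and Fgb, Ccnd1 and Fga to the right.

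In SIN (20 mg/kg) over DN, 0 of 74 tested genes of these lists passed the adjusted threshold in edgeR's quasi-likelihood test, DESeq2 or the exact test, and 11 had an unadjusted p under 0.05 in the first, where 15.4% of all genes did. In SIN (40 mg/kg) over DN, 0 of 73 passed the quasi-likelihood test and 13 had an unadjusted p under 0.05 (17.1% of all genes). The counts of 11 and 13 are near the share of all genes. Cdkn1a, Il20ra and Il4r passed with DESeq2, beside 424 of 15530 genes. The first 2 of these passed with the exact test, beside 161 of 15530 genes. These 3 and 2 of 73 are no result about the lists. The 2 lowest unadjusted p-values at 40 mg/kg among the IL-6 family were those of Lif, with a log2 fold change of -1.33 ± 0.41 (adjusted p = 0.204 in edgeR's test), and Il27ra with -1.48 ± 0.49 (adjusted p = 0.211), both at mean levels of 0.963 CPM or less. Socs5 was at 0.36 ± 0.11 over DN at 40 mg/kg and 0.24 ± 0.11 at 20 mg/kg, and Il4r, the interleukin-4 receptor, at -0.37 ± 0.09 and -0.31 ± 0.11. Prlr was at -0.48 ± 0.28 and -0.25 ± 0.28 and Igf1 at 0.49 ± 0.41 and 0.13 ± 0.32 in the same order, with adjusted p-values from 0.407 to 0.849.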

How the data were processed

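The authors selected mRNA by oligo(dT) for Illumina sequencing and aligned the trimmed reads to rat genome Rnor_6.0 with TopHat, and the submitters' processing notes also name Bowtie, RSEM and edgeR. The authors deposited 1 table of estimated counts per gene, not normalized, with whole values (within 1e-06) for 74.3% of the nonzero entries. Counts were rounded to whole numbers. Columns were joined to rats by library number, and 4 library columns that no sample record names were not used. The gene lengths are those of the table, whose origin is not given in the sources used here.

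Tests used edgeR 4.0.16 (quasi-likelihood test, TMM, filterByExpr, a separate fit for each of 6 comparisons) in R 4.3.3, and all 9 genes passed the filter in each. Intervals are 95% intervals of the fitted log2 fold changes. Log2 CPM used a prior count of 2, and covariation used 100000 permutations within groups. Only edgeR's quasi-likelihood and exact tests and DESeq2 were tried on simulated counts, with larger changes than those of the 9 genes. Alternatives were DESeq2 1.42.0, edgeR's exact test, RLE scaling, no filter, a minimum of 10 counts per compared rat, 1 joint fit of the 16 rats, a replicate block, a prior count of 0.25, each rat left out, and Stat5a and Stat5b summed. Promoters came from the RefSeq table of GRCr8, which held 7 of the 9 genes, and genes were named where all 9 are given, where a list gene passed the test or, failing that, by the smallest p, and by the nearest pattern. Some genes of the lists and some nearest genes are not reported here. The genes and lists were chosen with earlier results of these data known. P-values measure the spread between these rats only, and 4 rats per group limit their precision.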

Additional observations from a re-analysis of the deposited data

Results flagged for a closer look

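Stat3 in the normal group had 1 rat far from the others. Normal replicate 2 was at 187 CPM, where the other 3 rats of the group were at 135 to 143 CPM, and its gap to the nearest rat was 0.833 of the range of the group. This is just past Dixon's critical value for 4 samples, and 36 groups of rats, 4 for each of 9 genes, were examined, of which chance singles out about 1 in 20. The same rat had the highest Stat5a of its group, at 16.2 CPM.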

How the results depend on the processing

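Of 381 fold changes of the 9 genes under alternatives that kept all rats, 369 kept their direction and their side of the adjusted threshold, 9 passed it, 0 turned, and 3 kept their direction without an adjusted p in DESeq2 (Socs1 at both doses and Socs2 at 20 mg/kg over DN). With 1 rat left out, 404 of 432 kept both, 3 passed and 25 turned, and the cause was not tested.

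The number of the 9 genes past the adjusted threshold, 0 throughout in edgeR's quasi-likelihood test, for SIN (40 mg/kg) over DN became 2 in DESeq2 and 1 in edgeR's exact test. For DN over normal it became 2 with DESeq2, 1 with the exact test, 1 with all 16 rats together and 0 to 2 with 1 rat left out, where 1 passed without normal replicate 2 and 2 without DN replicate 3. For SIN (40 mg/kg) over normal it became 1 with DESeq2 and 1 with the exact test. Of all genes, DESeq2 passed 424, 4161 and 1764 and the exact test 161, 3389 and 1509 in these comparisons, in the same order. For DN over normal, 3682 of 16404 genes passed with all 16 rats together. It was 3782 of 16019 genes without normal replicate 2 and 2589 of 15966 without DN replicate 3. At an unadjusted p under 0.05 the number of the 9 genes for SIN (20 mg/kg) over DN went from 1 to 2 with DESeq2, 0 with RLE, 3 with all 16 rats together and 0 to 2 with 1 rat left out (0 without SIN (20 mg/kg) replicate 1 or 3, 2 without replicate 4). Of all genes, 2644 of 15725 reached it with DESeq2, 2429 of 15725 with RLE and 2951 of 16404 with all 16 rats together. Without SIN (20 mg/kg) replicate 1, 3 or 4, 1443 of 15894, 1451 of 15958 and 2789 of 15973 genes did. For SIN (40 mg/kg) over DN 5 of the 9 became 3 to 5 with 1 rat left out (3 without SIN (40 mg/kg) replicate 2 or 4). Of all genes, 1897 of 15758 reached it without replicate 2 and 1672 of 15716 without replicate 4. The number of the 9 went from 2 to 4 for DN over normal where every compared rat needed at least 10 counts. Of all genes, 5559 of 14130 reached it there, so 4 of 9 is near that share. Under that minimum the number of the 9 went from 2 to 1 for SIN (40 mg/kg) over normal, beside 3338 of 14185 genes. Socs1, with 7 counts in 1 rat, was not tested there. With all 16 rats together the number of the 9 went from 0 to 1 for SIN (20 mg/kg) over normal, beside 3396 of 16404 genes. With 1 rat left out it was 0 to 1 in that comparison (1 without SIN (20 mg/kg) replicate 1 or 3, beside 4104 of 16052 and 2854 of 16099 genes). Between the doses it was 1 to 2 with 1 rat left out (2 without SIN (20 mg/kg) replicate 1 or 4, beside 788 of 15799 and 887 of 15887 genes). Pairs that covaried by Pearson's r were 0, 2 with RLE and 3 without subtraction of group means. With 1 rat left out they were 0 to 2 (1 without normal replicate 3, DN replicate 3 or SIN (20 mg/kg) replicate 2, 2 without normal replicate 4 or DN replicate 4).

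With 1 rat left out, log2 fold changes that turned ran from -0.018 to 0.116 (Socs2) and -0.38 to 0.14 (Socs3) for SIN (20 mg/kg) over DN, and from -0.024 to 0.16 (Socs2) for SIN (40 mg/kg) over DN. For DN over normal they ran from -0.032 to 0.062 (Stat5b) and -0.26 to 0.007 (Socs1). Between the doses they ran from -0.011 to 0.051 (Jak1), -0.073 to 0.018 (Stat3), -0.001 to 0.12 (Stat5b) and -0.076 to 0.098 (Socs2). Over normal at 20 mg/kg they ran from -0.009 to 0.037 (Jak1), -0.116 to 0.06 (Stat3) and -0.605 to 0.064 (Cish), and at 40 mg/kg from -0.16 to 0.003 (Jak2) and -0.15 to 0.03 (Stat3).

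Replicate numbers did not pair the rats, since 2 of 24 correlations of deviations between same-numbered rats were over 0.1 (range -0.25 to 0.25). With the replicate number as a block, 0 of the 9 genes passed the adjusted threshold in any comparison. Their number at an unadjusted p under 0.05 went from 5 to 2 for SIN (40 mg/kg) over DN, beside 1881 of 15530 genes. It went from 1 to 0 for SIN (20 mg/kg) over DN, beside 1549 of 15725 genes. All genes past the adjusted threshold in DN over normal went from 3076 to 1326 (770 to 3782 with 1 rat left out and no block). DESeq2 passed 220 and 424 of all genes for the lower and higher SIN dose over DN, where the quasi-likelihood test passed 0. With 7 to 33 counts per rat, Socs1 is the value that depth limits most.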
